A study of Mus musculus with 10 samples.

Results

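The baseline transcriptome of the adult mouse cerebral cortex was described from 5 of the 10 libraries of the series, those whose genotype label is Atad3 control, and the 5 Atad3 nKO libraries were left out of every value. The controls were littermates of the nKO animals: male C57BL/6 mice aged 2.5 months, perfused with ice-cold PBS before the cortex was taken. Cre driver and alleles of the control animals are not given in the labels, so a floxed allele or a transgene in them cannot be told apart from a wild-type genotype here. Total RNA was depleted of ribosomal RNA and sequenced as stranded libraries, 1 per animal, and they are named controls 1 to 5, numbers that give no order. The libraries held between 16768382 and 24161361 estimated reads. The deposited tables list 24972 genes, 20613 of them with a protein-coding RefSeq transcript, and 42482 transcripts. Mitochondrially encoded genes were not analysed here.

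The cerebral cortex is built mainly of glutamatergic projection neurons and a smaller set of GABAergic interneurons, with astrocytes, oligodendrocytes and their precursors, microglia and cells of the vessel wall between them. Neurons spend much of their energy on ion pumping and on the release and recycling of synaptic vesicles, and they carry the machinery for calcium signalling through calmodulin. Brain genes are also spliced in many ways, often with exons that other tissues skip. Total RNA libraries sample nuclear and non-polyadenylated RNA too, so short structured RNAs and long nuclear RNAs appear beside messenger RNA. Levels are given in TPM, a share of all transcripts that is corrected for transcript length and scaled to the same total in every library, so that values can be compared between genes within a library. The spread between animals is given as the SD or as the coefficient of variation (CV, the SD as a percent of the mean), each over 5 libraries.

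A mean of at least 1 TPM was reached by 14329 genes, 57.4% of those listed, and 13624 of them reached it in all 5 libraries. Of the 14329 genes, 13477 had a protein-coding transcript and 797 were non-coding. At least 10 TPM was reached by 10193 genes, which held 98.0% of all TPM, at least 100 TPM by 2176 genes (67.6% of TPM) and at least 1000 TPM by 85 genes (17.9%). No read was assigned to 6176 genes in any of the 5 libraries. A count of 0 allows up to 3 reads, which corresponds to 0.124 to 0.179 CPM (reads scaled to the same total) across the libraries, so absence was not shown at this depth. The number of genes at 1 TPM or more was close in the 5 animals, at 14264 ± 69.8 (SD, n = 5). Intervals and limits of this kind cover counting error only.

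The most abundant gene products were short structured RNAs. Rpph1, the RNA component of the tRNA-processing enzyme RNase P (mm10 chromosome 14, 50807447 to 50807771), stood at 68976, 5404, 6222, 8132 and 10127 TPM in controls 1 to 5. Rmrp, the RNA of the related RNase MRP (chromosome 4, 43492785 to 43493059), stood at 39642, 7582, 7880, 8604 and 8105 TPM. Control 1 lay far above the other libraries for both, 9.23 times their mean for Rpph1 and 4.93 times for Rmrp, and the remaining 4 libraries lay much closer together. Snora74a, a small nucleolar RNA that guides pseudouridylation (chromosome 18, 35557030 to 35557227), came next and had no such step, with 6320, 5334, 6263, 5360 and 4886 TPM. These transcripts are short, 325, 275 and 198 bases, and their TPM rest on small corrected lengths. Together Rpph1 and Rmrp held 10.9% of the TPM of control 1 and between 1.30% and 1.82% in the others.

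Below these RNAs the list was led by genes of calcium signalling, exocytosis and housekeeping. Calm2, which encodes the calcium sensor calmodulin (chromosome 17, 87433401 to 87446935), was the highest protein-coding gene, with 4202, 5484, 4791, 5032 and 5222 TPM. Calm3, which encodes the same protein, reached 2046 ± 72.1 TPM (SD, n = 5). Malat1, a nuclear long non-coding RNA (chromosome 19, 5795690 to 5802672), had 4456 ± 440 TPM and the highest mean of estimated reads of any gene, 230737. Next came Snap25 with 3622, 4055, 4144, 4157 and 4019 TPM. Ppia, the peptidyl-prolyl isomerase cyclophilin A, had 3785 ± 415 TPM, the constitutive chaperone Hspa8 had 3686 ± 322 and the elongation factor Eef1a1 had 3630 ± 343. Cox8a of cytochrome oxidase followed at 2422 ± 344, and then the prostaglandin D synthase Ptgds, the glycolytic enzyme Aldoa, the actin-binding peptide gene Tmsb4x and the lipoprotein Apoe, an astrocyte product. Of the protein-coding genes plotted by library, Ptgds had the widest spread, with 1745, 1943, 2674, 2519 and 3113 TPM, and Apoe the narrowest, with 2037, 2195, 2260, 2170 and 2316 TPM.

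**Figure D1:**
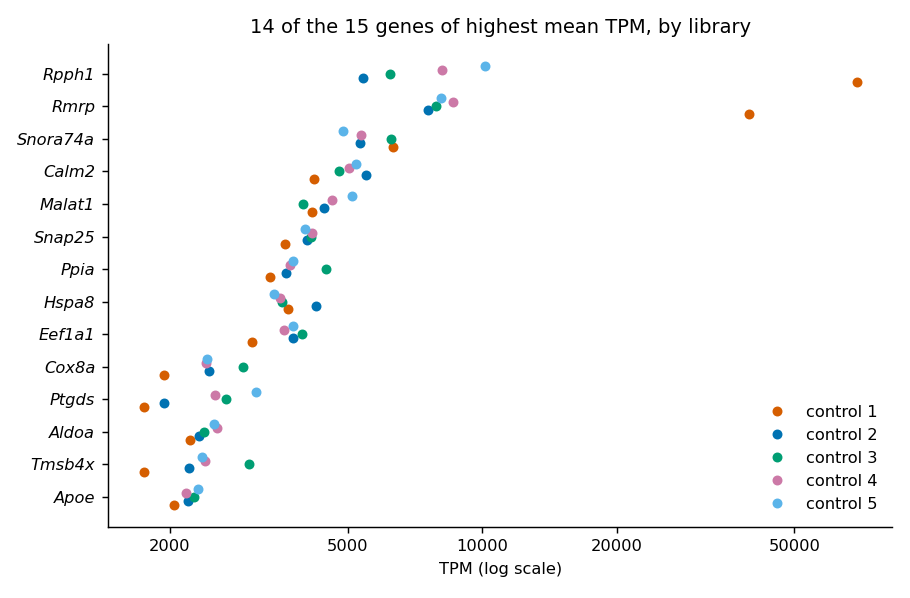
TPM (log scale) of 14 of the 15 genes with the highest mean, 1 point for each control library. Control 1 lies far to the right for Rpph1 (68976 TPM) and Rmrp (39642 TPM), and is the lowest library for Calm2 (4202 TPM), Snap25 (3622 TPM) and Apoe (2037 TPM). Rpph1 and Rmrp take 10.9% of the TPM of control 1, which lowers its other values. How much of the low values of Calm2, Snap25 and Apoe comes from this was not tested.

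Snap25 encodes the plasma membrane SNARE of the neurotransmitter release machinery and has a pair of mutually exclusive exons, 5a and 5b, which code for alternative versions of the same stretch of the protein (5a is the form of the developing brain and 5b that of the adult). Both are shown because the adult exon held nearly all of the gene's TPM. They lie next to each other at chr2:136769743-136769860 and chr2:136770057-136770174 on the plus strand (mm10), each is 118 bases long, and 31 bases differ, written in capitals.
Snap25 exon 5a: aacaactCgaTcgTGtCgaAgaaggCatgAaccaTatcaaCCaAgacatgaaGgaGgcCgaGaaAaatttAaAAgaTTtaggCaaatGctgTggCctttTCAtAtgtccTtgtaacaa
Snap25 exon 5b: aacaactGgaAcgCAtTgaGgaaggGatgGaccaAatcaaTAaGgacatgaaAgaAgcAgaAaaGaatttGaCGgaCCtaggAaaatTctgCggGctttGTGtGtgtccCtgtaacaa
The transcript with exon 5b made up 93.0%, 91.2%, 93.6%, 91.6% and 92.0% of the TPM of the transcripts whose structure could be linked, 92.3% ± 1.01 (SD, n = 5). The form with 5a was left with 7.71% ± 1.01, or 307 ± 47.8 TPM, a level above that of most genes of the tissue.

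The transcriptome was spread over many genes, and how concentrated it looked depended on control 1. The 100 genes with the highest mean held 25.6%, 17.3%, 17.9%, 17.9% and 17.9% of the TPM in controls 1 to 5. Without Rpph1 and Rmrp, and with TPM rescaled to the same total, the corresponding shares were 16.8%, 16.4%, 17.0%, 16.7% and 16.5%, and the libraries lay close together. In order of their mean, 912 genes sufficed to reach 50% of all TPM, 6141 genes 90% and 11403 genes 99%. Counted in each library, 50% was reached with 710 genes in control 1 and with 932 to 975 in the others. Without Rpph1 and Rmrp those counts were 984, 1007, 965, 983 and 1002.

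**Figure D2:**
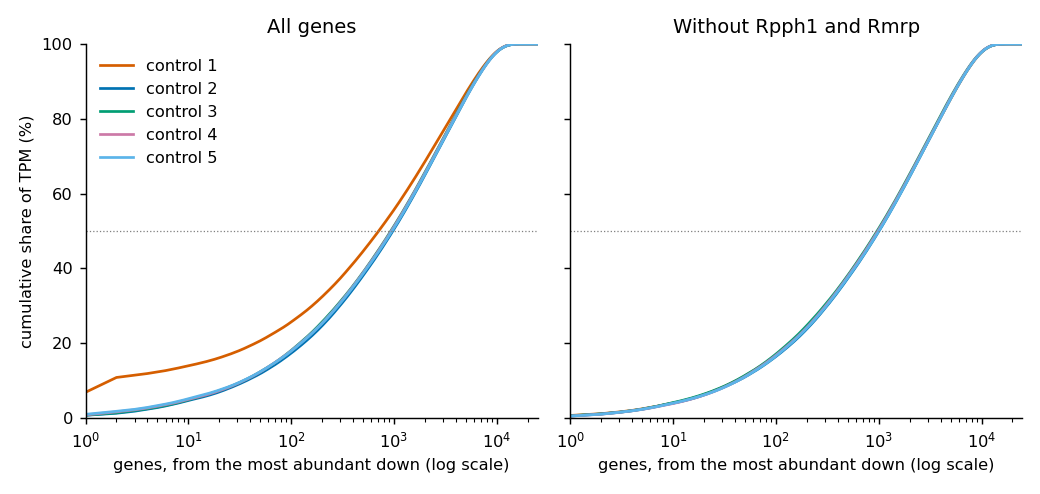
Cumulative share of TPM (%) against the number of genes taken from the most abundant down (log scale), 1 line for each control library, with all genes at left and without Rpph1 and Rmrp at right. The dotted line marks 50%; control 1 reaches it with 710 genes at left and 984 at right, where the 5 lines overlie each other.

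Protein-coding genes held 85.0% of the TPM in control 1 and 94.2% to 94.6% in the other libraries, but 96.8% ± 0.163 of the estimated reads (SD, n = 5). Non-coding genes shorter than 400 bases made up that difference: 1410 were listed, 108 reached 1 TPM, and they held 13.0% of the TPM of control 1 and 3.01% to 3.54% in the others, with 0.210% ± 0.230 of the reads. The 110 listed Snora and Snord genes, the box H/ACA and box C/D small nucleolar RNAs, held 1.54%, 1.15%, 1.35%, 1.27% and 1.06% of the TPM, a far smaller step in control 1. Rnu12, the U12 RNA of the minor spliceosome, stood at 2180 ± 308 TPM, with control 1 inside the range of the others. Non-coding genes of 400 bases or more held 1.98% ± 0.154 of the TPM. Among these, after Malat1, the maternally expressed imprinted RNAs Meg3 and Rian had 741 ± 112 and 587 ± 76.7 TPM, the paraspeckle RNA Neat1 had 38.2 ± 4.10, and the uncharacterised 2900097C17Rik had 1682 ± 162. Bc1, the dendritic RNA of rodent neurons, was listed at 0 in every library. This does not show that it is absent from the tissue, and whether these libraries and their quantification can register it was not tested.

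Control 1 stood apart in more than these RNAs, and its values bear on each spread given here. With Rpph1 and Rmrp included, its mean gene length weighted by TPM was 2657 bases against 2894 to 2962 in the others. Both RNAs are short, and the mean was not computed without them. With all genes in the total, control 1 was the lowest library for 47.2% of the 14329 genes. Once Rpph1 and Rmrp were taken out and TPM rescaled, it was the lowest for 27.1%, a share like the 27.3% of control 3. On that rescaled scale its median log2 difference from the mean of the other libraries ran from -0.12 in the quartile of genes with the lowest GC content to 0.17 in the quartile with the highest. Across those 13478 genes, which share the libraries and are not independent, Spearman's rho between GC content and the difference was 0.42 for control 1 and between -0.31 and 0.14 for the others. Rpph1 and Rmrp have 67.1% and 64.2% GC. The part of GC content in the values of control 1 was not tested.

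Transcript use was examined in the genes whose transcript reads sum to the gene's reads. Of these, 6370 had at least 2 RefSeq transcripts and a mean of 1 TPM or more. The leading transcript was taken in each library separately, so it can be another transcript in another animal. Its share of the gene's TPM, averaged over the 5 libraries, had a median of 82.3% over genes. This share was over 90% in 2260 genes (35.5%) and under 50% in 428 genes (6.72%). The same transcript led in all 5 animals in 4519 genes (70.9%). Agreement was higher where the gene was abundant, with 748 of 1496 genes between 1 and 10 TPM, 2832 of 3788 (74.8%) between 10 and 100, 908 of 1051 (86.4%) between 100 and 1000 and 31 of 35 (88.6%) above 1000. It was also higher where the leading share was large, from 31.8% of the genes with a leading share under 50% to 85.9% of those over 90%. Salmon divides reads that fit several transcripts by a model, so forms that differ in few bases are less certain than these counts show.

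The use of several exons known to mark neurons was inferred from the modelled TPM of the transcripts that hold them. Reads over the exons themselves were not counted. The exon sequences are shown because the pairs occupy the same place in the protein and differ enough for reads to tell them apart. Positions and strands are those of GRCm38 (mm10), the structures and sequences come from GENCODE transcripts linked to the RefSeq accessions, and in each pair capitals mark the bases that differ. Pkm, the last enzyme of glycolysis, uses the M1 exon in muscle and brain and the M2 exon in proliferating tissue (chr9:59675029-59675195 and chr9:59675568-59675734, plus strand, 64 of 167 bases different).
Pkm exon M1: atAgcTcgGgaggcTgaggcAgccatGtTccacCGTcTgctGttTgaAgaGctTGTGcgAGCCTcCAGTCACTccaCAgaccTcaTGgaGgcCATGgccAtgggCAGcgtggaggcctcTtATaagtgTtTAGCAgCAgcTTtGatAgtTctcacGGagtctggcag
Pkm exon M2: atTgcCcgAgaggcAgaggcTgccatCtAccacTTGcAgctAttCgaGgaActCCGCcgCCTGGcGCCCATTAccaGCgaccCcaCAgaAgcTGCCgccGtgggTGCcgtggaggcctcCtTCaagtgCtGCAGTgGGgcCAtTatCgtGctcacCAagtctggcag
The M1 form made up 92.1%, 87.4%, 88.7%, 89.1% and 90.2% of the gene's TPM in controls 1 to 5, and the M2 form was present in every animal, at 144 ± 24.4 TPM (SD, n = 5). Cdc42, a small GTPase of the actin cytoskeleton, ends in an exon used in most tissues or in one used in brain, which changes the lipid attachment of the protein (chr4:137321106-137321192 and chr4:137322533-137322619, minus strand, 30 of 87 bases different).
Cdc42 ubiquitous exon: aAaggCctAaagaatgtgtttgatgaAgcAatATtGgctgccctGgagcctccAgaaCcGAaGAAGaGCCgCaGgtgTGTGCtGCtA
Cdc42 brain exon: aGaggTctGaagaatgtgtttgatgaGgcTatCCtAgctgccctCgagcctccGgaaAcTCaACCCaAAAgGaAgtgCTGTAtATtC
The brain form held 60.8%, 60.2%, 61.6%, 63.3% and 60.7% of Cdc42. Both forms were thus abundant, and the animals differed by few percentage points.

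The AMPA-type glutamate receptor subunits carry flip or flop exons just before the last transmembrane segment, which alter how fast the channel desensitises. The pairs of Gria1 (chr11:57309769-57309883 flop and chr11:57310608-57310722 flip, plus strand) and Gria2 (chr3:80691320-80691434 flop and chr3:80690404-80690518 flip, minus strand) are shown because both subunits used mostly flop, to different degrees. Each exon has 115 bases, 36 of which differ within each pair.
Gria1 flop: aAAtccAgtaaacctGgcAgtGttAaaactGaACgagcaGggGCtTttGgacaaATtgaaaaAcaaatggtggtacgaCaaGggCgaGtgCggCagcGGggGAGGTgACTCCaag
Gria1 flip: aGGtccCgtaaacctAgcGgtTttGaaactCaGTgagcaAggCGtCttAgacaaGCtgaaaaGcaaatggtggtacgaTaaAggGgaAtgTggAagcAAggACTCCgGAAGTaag
Gria2 flop: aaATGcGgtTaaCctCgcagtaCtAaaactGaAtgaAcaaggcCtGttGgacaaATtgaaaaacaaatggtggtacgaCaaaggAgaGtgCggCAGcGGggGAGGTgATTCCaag
Gria2 flip: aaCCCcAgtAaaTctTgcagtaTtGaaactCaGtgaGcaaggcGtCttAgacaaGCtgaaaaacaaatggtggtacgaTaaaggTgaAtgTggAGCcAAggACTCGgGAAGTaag
Flop made up 59.1%, 60.2%, 64.1%, 63.2% and 56.9% of Gria1 and 77.0%, 75.2%, 72.5%, 78.3% and 76.3% of Gria2. The ranges of the 2 genes did not overlap, and flop was above flip in all 5 animals for both. Gria2 was the most abundant of the 22 glutamate receptor genes, at 601 ± 59.2 TPM, and Gria1 stood at 140 ± 7.97 TPM (SD, n = 5).

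Other neuronal forms arise from short exons that are used or skipped. In the sequences that follow, capitals mark the optional region and lower case the 15 coding bases on each side in the transcript that holds it. Src, a tyrosine kinase, has an 18-base exon in its SH3 domain in neurons (chr2:157458843-157458860, plus strand). Clta, a clathrin light chain of vesicle coats, has neuronal exons of 54 and 36 bases (chr4:44030215-44030268 and chr4:44031400-44031435, plus strand).
Src, 18-base region: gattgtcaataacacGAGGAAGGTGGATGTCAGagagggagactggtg
Clta, 54-base region: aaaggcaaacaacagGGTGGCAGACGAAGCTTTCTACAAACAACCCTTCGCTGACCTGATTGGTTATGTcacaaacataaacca
Clta, 36-base region: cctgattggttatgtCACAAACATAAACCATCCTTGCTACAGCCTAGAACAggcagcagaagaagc
The Src region was in 88.0%, 86.5%, 85.1%, 87.4% and 76.3% of the gene's TPM, with control 5 below the others. The Clta regions were in 79.2% ± 1.61 and 72.5% ± 2.13 (SD, n = 5). App, the amyloid precursor protein, showed the reverse: the 168-base region that codes for its Kunitz-type protease inhibitor domain (chr16:85043576-85043743, minus strand), which neurons skip, was in 3.82%, 3.98%, 3.27%, 2.96% and 3.37%.
App, 168-base region: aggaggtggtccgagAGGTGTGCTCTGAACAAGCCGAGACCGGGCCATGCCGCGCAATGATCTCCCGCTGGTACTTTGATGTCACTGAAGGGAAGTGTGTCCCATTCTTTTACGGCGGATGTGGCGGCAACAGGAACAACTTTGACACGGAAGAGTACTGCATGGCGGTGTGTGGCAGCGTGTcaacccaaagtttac
The App region was low in every animal, and its highest value was in control 2.

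**Figure D3:**
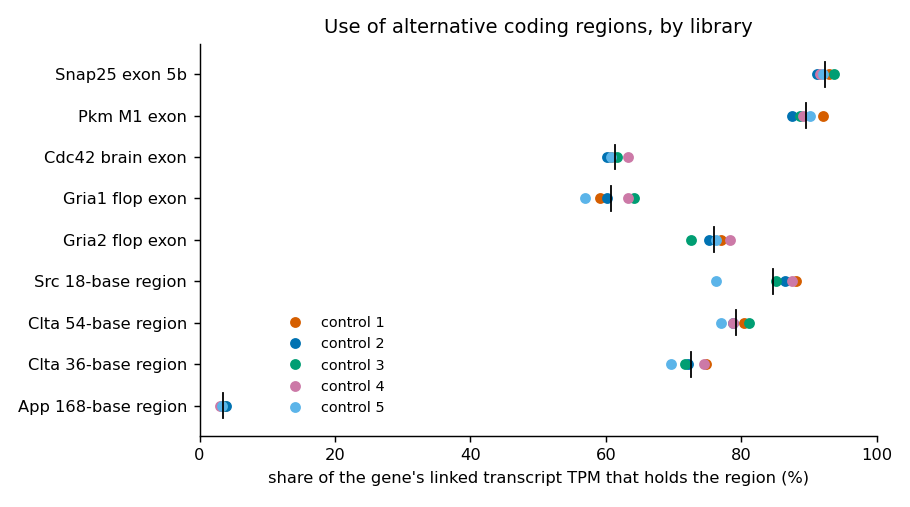
Share of the gene's TPM (%, over transcripts with a linked structure) that holds each alternative coding region, 1 point for each control library and a bar at the mean. Snap25 5b (mean 92.3%) and Pkm M1 (89.5%) lie near the top of the scale, Cdc42 brain (61.3%) and Gria1 flop (60.7%) in the middle and the App region (3.48%) near 0; the lowest point of Src is control 5 (76.3%).

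Of the 80 genes fixed as an isoform panel, 76 had at least 2 transcripts and 10 TPM. The same transcript led in all 5 libraries in 64 of them. The share of the leading transcript of each library, averaged over libraries, had a median of 65.9%. Several leads were near complete: 98.2% ± 0.423 for the calcium/calmodulin-dependent kinase gene Camk2a, 97.8% for Camk2b and 96.5% ± 0.418 for App (SD, n = 5). For the BDNF receptor gene Ntrk2, the transcripts with the kinase exons held 77.7% ± 3.28 and the form that ends in a truncated receptor 22.3% ± 3.28. In Mapt, the tau gene, the transcript with the additional 87-base exons held 13.2% ± 1.48. The scaffold gene Homer1 was divided between long forms and the short form that ends in its own 31-base exon, the form known to be induced by activity: the short form stood at 129, 208, 127, 223 and 187 TPM, 41.8% ± 6.62 of the linked TPM.

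Among the abundant genes whose lead changed between animals, the division differed from gene to gene. Mdh1 and Ldhb, the malate and lactate dehydrogenases, each list a pair of transcripts of the same length (1958 and 1304 bases), which code for the usual protein and for a longer one made by reading through the stop codon. These were divided 50.2% to 49.8% and 48.3% to 48.2%, so their order could not be determined. Gpm6a, a neuronal membrane glycoprotein, was divided 50.9% to 49.1%. Ddx5, an RNA helicase, moved more: its leading transcript NM_007840 held 95.3%, 58.3%, 42.1%, 62.6% and 85.4%, and control 3 had another lead. For Psap, the precursor of the lysosomal saposins, the transcript NM_001146121 held 61.5%, 65.0%, 25.1%, 33.1% and 64.9%. Another of its transcripts, NM_001146120, held 31.6%, 0%, 30.8%, 28.8% and 0.717%, so controls 3 and 4 differed from controls 2 and 5 in both. A further one, NM_001146124, held 0% in control 1 and 26.6% to 36.7% in the others. Reads are divided among these forms by a model, so such steps need not be differences between the animals.

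Markers of the tissue were read next. Excitatory and inhibitory neurons, astrocytes, oligodendrocytes and their precursors, microglia, endothelial cells and mural cells were all represented: every marker of these 8 lists had at least 1 TPM. Slc17a7, the vesicular glutamate transporter of cortical projection neurons, stood at 529, 482, 518, 605 and 619 TPM. Its subcortical counterpart Slc17a6 reached 38.5 TPM, and the ratio of the means was 14.3. Among other excitatory markers, Camk2a had 638 ± 67.5 TPM and the transcription factor gene Neurod6 85.1 ± 13.8. Of the separate list of layer markers, Cux1, Cux2, Lamp5 and Calb1 ranged from 54.7 to 307 TPM. That list had a median of 35.9 TPM and a lowest value of 0.385 TPM. Of the 14 layer markers, 13 reached 1 TPM. In tissue samples of this kind, fewer cells of a type and less RNA per cell cannot be told apart.

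Gad1, the larger glutamate decarboxylase of GABAergic cells, had 309 ± 23.6 TPM, and Gad2 64.6 ± 4.93 (SD, n = 5). The interneuron peptide genes Sst and Vip and the calcium-binding protein gene Pvalb had 370, 140 and 153 TPM. Astrocyte products were high: the glutamate transporters Slc1a2 (919 ± 63.7 TPM) and Slc1a3 (392 ± 46.8), Sparcl1 (1777 ± 164), and the water channel Aqp4 (83.7 ± 10.3). Oligodendrocytes were seen in Mbp (645 ± 110) and Mog (41.8 ± 5.65), and their precursors in Pdgfra (29.0 ± 3.48). Microglia were seen in P2ry12 (56.4 ± 11.1) and Cx3cr1 (31.5 ± 2.38), and Cst3 of that list, at 1895 ± 189 TPM, is also made by astrocytes. Cldn5 of the endothelial tight junction had 62.7 ± 10.3 TPM and the pericyte receptor Pdgfrb 12.3 ± 1.05. The median of the lists was highest for pan-neuronal genes (510 TPM) and astrocytes (160 TPM), against 25.0 TPM for all genes at 1 TPM or more. These lists differ in what was chosen for them, so their medians do not measure cell numbers.

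The lists of blood and of neighbouring tissues other than striatum had medians of 0.691 to 1.23 TPM. The striatum list had a median of 16.8 TPM, with 8 of its 10 genes at 1 TPM or more. Summed over the near-identical haemoglobin genes Hba-a1 and Hba-a2, between which reads cannot be divided with certainty, the level was 82.6, 58.2, 127, 112 and 217 TPM, and the neutrophil gene S100a8 ran from 5.01 to 38.5 TPM. Ttr, the transthyretin gene that dominates choroid plexus RNA, was at 0, 2.48, 0.507, 3.01 and 0.900 TPM. For the striatum, the receptor genes Drd1 and Drd2 had 11.4 ± 2.12 and 0.210 ± 0.103 TPM, and Isl1 was listed at 0, while Ppp1r1b and Penk, which cortex also expresses, had 91.8 and 68.0 TPM. Prox1 of the dentate gyrus had 3.50 ± 0.300 TPM, Tcf7l2 of the thalamus 1.17 ± 0.344, and Oxt of the hypothalamus was listed at 0. The Y-linked genes Ddx3y and Eif2s3y had 90.6 ± 12.1 and 78.6 ± 11.2 TPM and Xist 0.0104 TPM, as male animals have. Atad3a, the gene targeted in the nKO animals and encoding an ATPase of the mitochondrial inner membrane, had 28.2, 30.8, 33.5, 29.5 and 29.0 TPM in the controls.

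**Figure D4:**
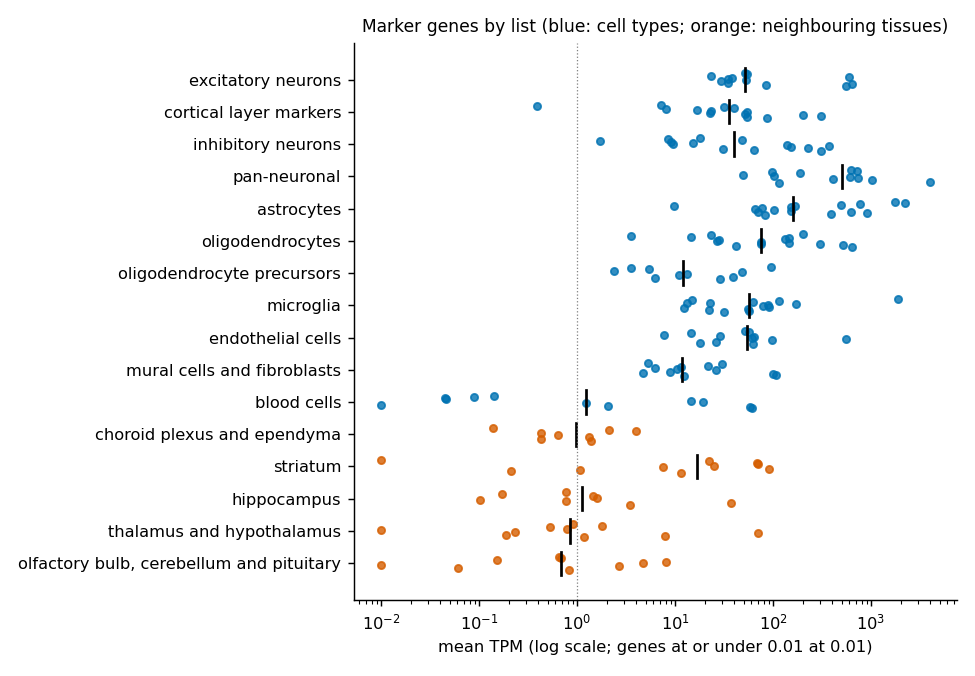
Mean TPM (log scale) of each marker gene by list, with a black bar at the list's median. The dotted line marks 1 TPM. The markers of neurons, glia and vessels lie to its right except 1 of the layer markers, with a median of 52.3 TPM for excitatory neurons. The medians for choroid plexus (0.977 TPM) and thalamus (0.854 TPM) lie near or below it, and that for striatum (16.8 TPM) lies to its right.

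Most genes for protein synthesis and energy supply were expressed at high levels, but single genes differed. The lowest ribosomal protein gene had 6.80 TPM. CVs reached 63.5% among the ribosomal protein genes and 42.5% among those of the respiratory complexes. The 79 genes of cytosolic ribosomal proteins had a median of 625 TPM, 71 of them were above 100 TPM, and together they held 4.97% ± 0.158 of the TPM (SD, n = 5). Rpl38 was the highest, at 2087 ± 128 TPM, and Rpl41 followed at 1625 ± 84.4. The 45 nuclear genes of the respiratory complexes held 2.62% ± 0.175, with 44 of them above 100 TPM. They were led by Cox8a, by the ATP synthase beta subunit Atp5b at 1711 ± 114 TPM and by Ndufa4 at 1506 ± 156. Glycolysis took 1.26% ± 0.0475 over 18 genes: Aldoa had 2396 ± 135 TPM, Gapdh 1639 ± 234 and Pkm 1376 ± 54.1. Among the ion pumps, the sodium pump subunit Atp1b1 had 1950 ± 234 TPM, and Slc12a5, the potassium-chloride transporter that keeps neuronal chloride low, had 303 TPM with a CV of 2.42%, or 6.30% on TPM rescaled without Rpph1 and Rmrp.

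Synaptic genes covered a wide range of levels. The 22 genes of synaptic vesicles had a median of 392 TPM, led by Snap25, by the calcium sensor Syt1 (899, 1076, 641, 1266 and 1238 TPM) and by Syp (991 ± 82.0 TPM, SD, n = 5). Control 3 was the lowest library for Syt1. The 22 glutamate receptor genes had a median of 41.9 TPM and ran from 601 for Gria2 to 2.76 for Grin2d. Gria3 had 233 ± 32.4 TPM, and the obligatory NMDA receptor subunit Grin1 had 212 ± 15.6. Of 14 GABA-A receptor genes 12 reached 1 TPM, and Gabrb2, a subunit of common synaptic receptors, had 257 ± 30.0 TPM. Of the 22 peptide and granule genes 18 reached 1 TPM: Cck was the highest, at 1118 ± 97.6 TPM, followed by the granin Chgb at 496 ± 90.5, Sst, and Npy at 311 ± 35.1. Genes of inflammation were low: 8 of 13 reached 1 TPM, none reached 100, and the highest was Ifit3 at 16.0 ± 2.18 TPM.

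Between animals the typical gene varied by little. Over the 14329 genes at 1 TPM or more, the median CV was 12.8%, and over controls 2 to 5 alone it was 10.8%. It fell with abundance, from 20.5% between 1 and 10 TPM to 11.6% between 10 and 100 and 10.2% between 100 and 1000. The CV that counting error alone gives was 12.8%, 4.11% and 1.79% in those classes, so counting error was a large part of the spread for low genes and a small part above 10 TPM. edgeR's estimate of the spread beyond counting, the biological coefficient of variation, was 0.180 over 13774 genes with 5 libraries and 0.134 without control 1. Lists of function ranged from a median CV of 6.38% for glycolysis, 9.12% for ribosomal proteins and 9.45% for the respiratory complexes to 13.8% for glutamate receptors and 17.6% for neuropeptides. The first 3 consist of abundant genes, and the median of all genes between 100 and 1000 TPM was 10.2%.

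Some genes had nearly the same TPM in all animals. Among the 9032 genes with at least 10 TPM and 200 reads, 470 had a CV under 5%, but 1831 did so without control 1, 980 without control 3 and 1089 on TPM rescaled without Rpph1 and Rmrp. The lowest on TPM as deposited were the uncharacterised AI413582 (1.31%), the sorting protein gene Pacs1 (1.35%) and the atypical protein kinase C gene Prkcz (1.40%, 179, 176, 175, 177 and 181 TPM). Of the genes often used as references in quantitative PCR, Rpl13a was the steadiest, with 719, 689, 701, 697 and 690 TPM and a CV of 1.75%. These CVs depend on the total of control 1: rescaled, Rpl13a had 807, 698, 711, 709 and 703 TPM and a CV of 6.32%, and AI413582, Pacs1 and Prkcz had CVs of 5.80%, 4.61% and 5.16%. The other references spread more, up to 28.9% for Polr2a, the large subunit of RNA polymerase II, and the 19 genes had a median CV of 11.0%. Actb, the most used of them, had 2115, 2167, 1195, 2167 and 2256 TPM: control 3 stood at 0.549 of the mean of the other libraries, which lay close together.

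A CV over 50% was found for 30 of the 9032 genes, for 22 without control 1 and for 20 without control 3. Control 1 was the library farthest from the median in 11 of the 15 genes with the highest CV. Pcsk1n, the precursor of a prohormone convertase inhibitor, had 117, 12.5, 7.60, 14.3 and 13.4 TPM. The histone H4 genes Hist1h4c, Hist1h4d and Hist1h4h, near-identical copies whose messages lack a poly(A) tail, summed to 2108 TPM in control 1 and to 221 to 344 in the others. The secreted protein gene C1qtnf4 had 229, 20.1, 37.0, 38.4 and 53.2 TPM and the ribosomal protein gene Rpl36 551, 207, 153, 179 and 207. Some of the spread lay between near-identical genes: Eno1b had a CV of 96.2%, but summed with Eno1, the enolase gene it copies, the level was 945 ± 30.8 TPM with a CV of 3.26%. Summing did not even out Atp6v0c and its pseudogene Atp6v0c-ps2, a pair for the proton pore of the vesicular ATPase, which gave 636, 548, 236, 792 and 794 TPM.

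Genes that neurons induce within minutes to hours of activity were the most variable list of neuronal function. Their products are mostly transcription factors and synaptic regulators, and their messages are known to rise and decay with recent firing. All 22 were above 1 TPM, from Fosb at 7.28 ± 4.23 to Homer1 at 476 ± 75.9 (SD, n = 5), and their median CV was 44.7%, against 12.8% for all genes. Arc, a capsid-like regulator of AMPA receptor traffic, had 363, 440, 59.3, 545 and 295 TPM. Fos had 74.3, 117, 19.3, 106 and 80.9 TPM, Egr2 14.7, 24.3, 3.70, 45.7 and 34.7, and Nr4a1, a nuclear receptor, 109, 164, 24.5, 193 and 169. Control 3 was the lowest library in each of these, and the ratio of the highest to the lowest library was 9.19 for Arc, 6.07 for Fos and 12.4 for Egr2.

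Over the whole list control 3 was the lowest library in 16 of the 22 genes and the highest in none, where it was the lowest in 21.6% of all genes at 1 TPM or more. Without Rpph1 and Rmrp in the total it was lowest in 20 of 22, against 27.3% of all genes. Control 4 was the highest library in 10 of the 22, against 16.9% of all genes. Without control 3 the median CV of the list was 28.1%, against 11.3% for all genes, so the list remained more variable than the typical gene in the other animals. Some members varied less: Bdnf had 36.7, 52.5, 39.5, 45.7 and 42.7 TPM, Vgf 198, 210, 163, 180 and 132, and Nptx2 a CV of 11.6%. Junb was 1 of the 4 members in which control 1 was the highest library, with 168, 85.8, 22.0, 89.7 and 81.4 TPM.

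**Figure D5:**
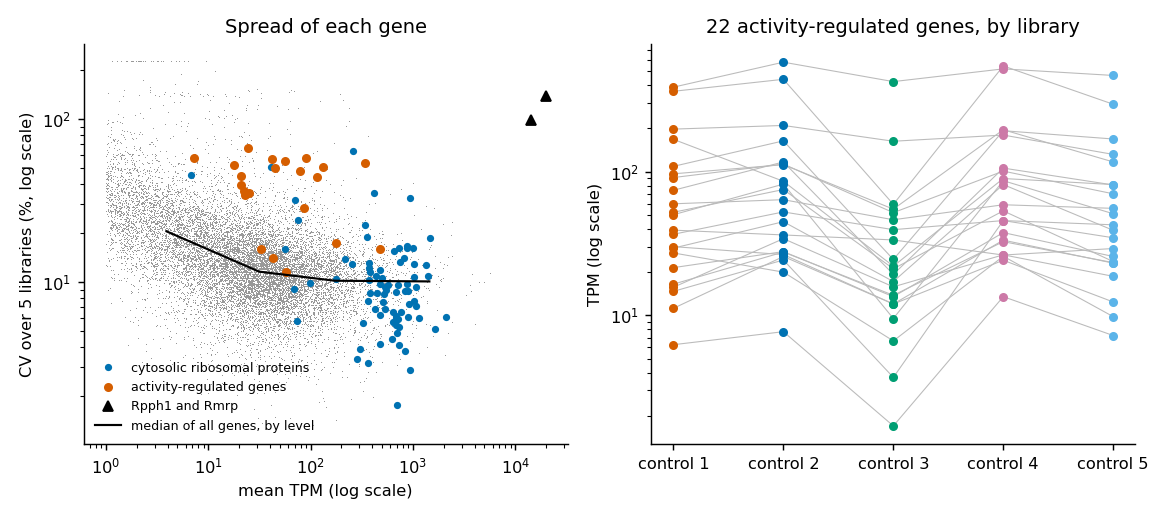
Left: CV over the 5 control libraries (%, log scale) against mean TPM (log scale) for genes at 1 TPM or more, with 2 lists, Rpph1 and Rmrp coloured and a line for the median of all genes by level. Right: TPM (log scale) of the 22 activity-regulated genes in each control library, with a thin line joining the values of a gene; the libraries have no order, and control 3 is the lowest in 16 of the 22.

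Promoters of these genes were read because the members moved together between animals, and the transcription factor CREB is known to act on several of them. The motif TGACG, the shared core of the cAMP response element, was searched on both strands in the 250 bases before the start of transcription (RefSeq, GRCm38). It was present for 13 of the 16 activity-regulated genes with an entry in the promoter table (81.2%). This compares with 19.8% of all genes and 30.1% of genes at 1 TPM or more. By window it was present in 55.6% of their 27, against 17.8% of all 32851 and 25.7% of those of genes at 1 TPM or more. Windows of a gene can overlap, and a match is a description of letters and not evidence of binding. Known CREB targets are in the list and the motif was chosen after the values were seen. The higher share is therefore no test and does not bear on the spread between animals. Shown are Fos (chr12:85473640-85473889, plus strand), Fosb (chr7:19310046-19310295, minus strand) and Junb (chr8:84978749-84978998, minus strand), with the motif in capitals.
Fos promoter: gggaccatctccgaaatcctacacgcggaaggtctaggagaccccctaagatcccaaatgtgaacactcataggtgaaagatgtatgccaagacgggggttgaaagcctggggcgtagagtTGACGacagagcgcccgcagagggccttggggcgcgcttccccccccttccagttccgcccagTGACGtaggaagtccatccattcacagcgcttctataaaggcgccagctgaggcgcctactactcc
Fosb promoter: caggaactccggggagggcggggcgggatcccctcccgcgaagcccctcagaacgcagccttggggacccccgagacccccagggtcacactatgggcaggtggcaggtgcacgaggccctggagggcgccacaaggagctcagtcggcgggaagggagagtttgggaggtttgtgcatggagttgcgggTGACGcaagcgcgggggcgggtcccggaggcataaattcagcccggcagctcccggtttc
Junb promoter: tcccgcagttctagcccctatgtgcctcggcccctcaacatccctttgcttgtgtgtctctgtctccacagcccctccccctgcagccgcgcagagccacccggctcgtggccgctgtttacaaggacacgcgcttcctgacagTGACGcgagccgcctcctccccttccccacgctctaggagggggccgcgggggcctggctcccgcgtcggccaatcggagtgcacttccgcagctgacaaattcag
The Fos window holds 2 matches and the other windows 1 each.

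Control 3 was low in some other neuronal genes as well. Sst had 409, 426, 172, 421 and 423 TPM, so that control 3 stood at 0.410 of the mean of the others, and the intermediate filament gene Ina had 84.2, 90.6, 35.0, 116 and 98.4 TPM. The postsynaptic scaffold gene Dlg4 had 245, 229, 171, 239 and 238 TPM, and Nrgn, a calmodulin-binding protein of dendrites, 881, 513, 321, 658 and 631. App had 1093, 1106, 893, 1133 and 1110 TPM. These genes were singled out after their values were seen. In the list of excitatory neurons, which holds Nrgn, control 3 was the lowest library in 7 of 12 genes, against 21.6% of all genes (27.3% on rescaled TPM). Its median ratio to the mean of the others was 0.780 there (0.758 on rescaled TPM). Among inhibitory markers control 3 was the lowest in 4 of 14 genes and the highest in 6, with a ratio of 1.01. For the pan-neuronal list the ratio was 0.964. Other neuronal genes showed no such step: Snap25, Slc17a7, Gad1 and Rbfox3, the NeuN gene, had 4144, 518, 335 and 103 TPM in control 3, which was the highest library for Gad1 and, by a small step, the lowest for Rbfox3. Genes of the respiratory complexes were high in control 3, with 2.83% of the TPM against 2.36% to 2.72% in the others, and 2.88% against 2.62% to 2.77% on rescaled TPM. For the ribosome the order depended on the scale: control 3 held 5.15% against 4.78% to 5.07%, but on rescaled TPM control 1 held 5.36% and control 3 5.22%. Spearman's rho between GC content and the log2 difference of control 3 from the other libraries was -0.29 across genes, and its part in these values was not tested.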

How the data were processed

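The authors deposited, for each library, a gene table and a transcript table in the format of Salmon. Per the file headers, these hold TPM, scaled by effective length, and estimated counts, the reads that Salmon assigned to each feature. Salmon, bcl2fastq, DESeq2 and the build mm10 are named, without versions, per the submitters' processing notes. Per the labels' protocols, RNA was extracted with TRIZOL, treated with Turbo DNase and made into rRNA-depleted stranded libraries. TPM were used as deposited. Estimated counts were rounded to whole numbers only for the spread estimate of edgeR 4.0.16 (R 4.3.3, intercept alone, TMM, filterByExpr), which was checked on simulated counts. The log2 scale used log2(TPM + 0.1).

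The 5 control libraries form 1 group, so no test of a difference was run (an exact sign-flip test of 5 libraries cannot give a p below 0.0625). Where nothing else is said, replicates are separate animals only as far as the labels tell. Transcripts were assigned to genes through RefSeq records of GRCm38 (41148 of 42482), and genes whose transcript reads summed to the gene's within 2 reads were kept for transcript use (24650 of 24972 genes). Structures and sequences came from GENCODE vM21, and a region's share is taken over the transcripts with a linked structure. A gene's GC content is that of its leading transcript.

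Members and gene lists were chosen with earlier results of these data known. Genes were named by rule: the 15 with the highest mean TPM, the 15 highest among protein-coding genes, the 10 with the most reads, the first 2 and the 3 highest of each list, the 10 lowest and 15 highest CV among genes with at least 10 TPM and 200 reads, the isoform panel, and the 8 highest genes with differing leads. Some genes that this rule names are not reported here. Others, such as Ina, Junb, Nr4a1, Polr2a, Grin2d, Slc17a6 and Vip, were named after their values were seen, as was the promoter motif. Alternatives were other thresholds, units, gene sets and pseudocounts, each library left out and, chosen after seeing the data, TPM rescaled without Rpph1 and Rmrp.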

Additional observations from a re-analysis of the deposited data

Results flagged for a closer look

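In 34 of 195 values examined over the 5 control libraries, 1 library lay far from the others by Dixon's criterion, which chance meets in about 1 of 20. Many of these genes were named for a high CV in the same libraries or after their values were seen, so the count cannot be read against that rate. Of the 34, 25 were at control 1, 5 at control 3, 2 at control 2 and 1 each at controls 4 and 5. The values share a total within a library and are not independent, and none of the causes was tested.

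In control 1 the short RNAs Rpph1 (68976 TPM) and Rmrp (39642 TPM) were far above the range of the others (5404 to 10127 and 7582 to 8604). With them stood the sum of both (10.9% of TPM), the list of short structured RNAs (11.1%), non-coding genes (14.7%), non-coding genes under 400 bases (13.0%) and genes under 300 bases (6.06%), while protein-coding genes were low (85.0%). The 100 most abundant genes held 25.6% of TPM there, 710 genes reached 50% of it, and 1951 genes reached 100 TPM against 2201 to 2244. The mean gene length weighted by TPM was low in control 1, at 2657 bases with Rpph1 and Rmrp included. Length less effective length is the correction that Salmon applies to each transcript. Its SD over long transcripts was 256 bases in control 1 against 521 to 626 in the others. The median of that correction over the same transcripts was lowest in control 2, at 181 bases against 190 to 192.

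Single genes high in control 1 were Hist1h4c (732 TPM against 108 to 132), Hist1h4h (683 against 50.5 to 88.3), Hist1h4d (692 against 62.2 to 124), Rpl36 (551 against 153 to 207), Pcsk1n (117 against 7.60 to 14.3), Atp6v0c (636 against 95.1 to 183) and C1qtnf4 (229 against 20.1 to 53.2). Low there were Snap25 (3622 against 4019 to 4157), Gpm6a (1559 against 2055 to 2203), Sparcl1 (1495 against 1802 to 1922), Penk (58.7 against 68.6 to 72.3) and Prox1 (2.98 against 3.53 to 3.72). In these values Rpph1 and Rmrp take 10.9% of the total of control 1, which lowers every other gene there. How much of the low values of the genes named comes from this was not tested.

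In control 3, Actb (1195 TPM against 2115 to 2256), Sst (172 against 409 to 426), App (893 against 1093 to 1133) and Dlg4 (171 against 229 to 245) were low, and Ldhb was high (1062 against 904 to 925). The oligodendrocyte precursor list was high in control 2, at 0.0293% of TPM against 0.0240% to 0.0246%. Control 5 was low for the 18-base region of Src, at 76.3% against 85.1% to 88.0%. Xist stood at 0.0361 TPM in control 4 and at most at 0.00825 in the others, a difference near the limit of detection.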

How the results depend on the processing

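No paired analysis was possible because the 5 control libraries form 1 group, no test of a difference was run and the library numbers only name them. The limit for a count was 1.5 times, and for most other values the SD between libraries. For the median CV, the median SD of log2 TPM and the biological coefficient of variation it was the SD of the values with 1 library left out. Those left-out values were thus judged against their own spread. Of 89 values of the 10 whole-transcriptome results under the alternatives, 72 stayed within this limit. So did 202 of 209 medians of gene lists and 783 of 790 means of single genes named. The other 7 were steady genes, such as Calm3 and Rpl13a, on TPM rescaled without Rpph1 and Rmrp.

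The share of the 100 most abundant genes was 15.6% by estimated counts, against 19.3% of TPM. The median CV of 12.8% became 14.2% on TMM-scaled CPM, 15.8% with no filter on low values and 11.3% with at least 10 TPM, and ranged from 10.8% to 13.6% with 1 library left out. The median SD of log2 TPM, 0.186, became 0.227 with no filter and 0.165 with at least 10 TPM, and ranged from 0.155 to 0.197 with 1 library left out. The count of genes with a CV under 5%, 470, was 1089 on TPM rescaled without Rpph1 and Rmrp and ranged from 501 (without control 4) to 1831 (without control 1) with 1 library left out. The biological coefficient of variation ranged from 0.134 without control 1 to 0.199 without control 5. The median share of the leading transcript, 82.3%, was 79.6% with at least 10 TPM, 86.3% with no filter and 79.4% with transcripts under 1% dropped first, where fewer forms remain per gene. On TPM rescaled without Rpph1 and Rmrp, the medians of the pan-neuronal and endothelial lists were 529 and 56.0 TPM, against 510 and 54.1. With 1 library left out, the endothelial median ranged from 52.8 to 55.6 TPM, that of the blood list from 0.120 (without control 4) to 1.47 around 1.23, and that of the inflammation list from 1.81 to 2.21 around 2.09. The causes were not tested. Leads of transcripts in genes of 1 to 10 TPM and levels of genes listed at 0 are limited by depth.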

Other observations

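Clock and stress genes, which follow the hour and the handling of an animal, were also read. All 15 genes of the circadian clock were above 1 TPM, with a median of 49.9 TPM. The highest were Tef and Nr1d2, transcription factors of the clock's output and of its repressor loop, at 257 ± 23.3 and 149 ± 22.2 TPM (SD, n = 5). Dbp, an output gene with a strong daily rhythm, had 103, 78.7, 100, 96.2 and 95.6 TPM, a narrow range, and the core activator genes Arntl and Clock had 49.9 ± 6.16 and 63.8 ± 6.21. The median CV of the list was 17.4%, and 11.1% without control 3.

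The 14 genes of the glucocorticoid and heat shock response were above 1 TPM in their means, led by Hspa8 and by the chaperone gene Hsp90aa1 at 1835 ± 241 TPM. Fkbp5, a target of the glucocorticoid receptor, had 25.7, 29.9, 21.0, 23.7 and 19.0 TPM, and Sgk1, a kinase gene that it induces, had 70.6, 105, 66.5, 90.6 and 85.3. Control 2 was the highest library for both and for 8 of the 14 genes, against 21.1% of all genes, with a median ratio of 1.24 to the mean of the others. The list's median CV of 19.3% was 19.8% without control 3, whereas that of the activity-regulated genes was 28.1% there.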
